A study of Homo sapiens with 4 samples.

Results

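The genes described here are 34 of the 60651 in the count table: 19 code for glucose transporters and the enzymes from hexokinase to lactate dehydrogenase, called the glycolytic genes below, and 15 are hypoxia-inducible or sense oxygen, called the HIF-linked genes below. They were taken by symbol, and all 34 had at least 1 count. CHP134, an established human neuroblastoma line with amplified MYCN, had been treated for 24 h in 1 sample per treatment: 13-cis retinoic acid (13cRA, a retinoid used in neuroblastoma) at 5 µM, doxazosin (an alpha-1 adrenoceptor blocker) at 10 µM, both drugs at these doses (the combination), or DMSO at 0.04%, the vehicle control. Single live cells were picked by imaging in the nanowells of an ICELL8 chip, and whole transcripts were amplified, with no molecular identifiers, and read as counts per gene and cell. The question the design puts to these genes is how each drug, and the addition of one to the other, moved their RNA.

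Glycolysis splits glucose into 2 molecules of pyruvate, which lactate dehydrogenase can turn to lactate while it regenerates NAD+. When oxygen is low, the prolyl hydroxylases that mark the subunit HIF1A for destruction slow down, and the stabilised HIF factor binds DNA at a short core sequence and raises transcription of most glycolytic enzymes, of PDK1, which holds pyruvate back from mitochondria, of mitophagy receptors such as BNIP3, and of the hydroxylase EGLN3 itself. MYC proteins, among them the amplified MYCN of this line, are also known to bind the promoters of glycolytic genes. HIF1A is controlled mainly through the stability of its protein, which RNA counts do not measure.

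The libraries differed in depth and quality, and the 13cRA library stood apart. It had 318 kept cells and 22636509 summed counts, against 239 and 46171287 in the doxazosin library, 287 and 72192743 in the combination library, and 353 and 48164169 in the DMSO library. Its median cell had 4272.5 genes and 13.2% mitochondrial counts, whereas the medians of the other libraries were 6023 to 6626 genes and 10.1% to 10.6%. At an equal 34000 counts per cell the median was still 3895 genes in 13cRA cells, against 4680 to 4771 genes in the other libraries. Of 9 neuroblast markers 7 reached 5 CPM (counts scaled to a library total of 1000000) in a library, while TH and DBH, which make catecholamines, stayed at or below 0.177 and 0.125 CPM. Of 5 Schwann cell, 6 fibroblast and 5 endothelial markers, 1, 2 and 1 reached 5 CPM, with summed levels of 0.664 to 9.72, 5.17 to 17.2 and 1.31 to 22.8 CPM over the libraries. The highest of these sums were in the 13cRA library: CLDN5 stood at 19.7, 0.715, 11.1 and 0.540 CPM and ERBB3 at 6.54, 0.238, 1.30 and 0.166 CPM in 13cRA, doxazosin, combination and DMSO cells. PTPRC and the other leukocyte markers, and the epithelial and erythroid markers, all stayed under 5 CPM. Low depth and a high mitochondrial share thus set apart the library with 13cRA alone. The combination library, also with 13cRA, had the most summed counts, the most genes per cell and the lowest mitochondrial share. CLDN5 and ERBB3 were higher in both libraries with 13cRA than in the others. Apart from the comparisons below among cells with similar gene numbers, the part of markers, depth and mitochondrial share in the results on the 34 genes was not tested. Cells are named in the table by treatment and number, so wells shared between libraries could not be counted.

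Levels are CPM of the counts summed over the kept cells of a library. A difference is log2((CPM + 1)/(CPM + 1)), so 0.58 is 1.5-fold, the size used here in place of a test, because 1 sample per treatment allows none. A gene was called measured when its mean over the 4 libraries was at least 5 CPM, which held for 27 of the 34 genes (18 glycolytic and 9 HIF-linked) and for 9573 genes of the table. Intervals of levels cover counting error only. The rank-based 95% interval of a list median treats its genes as independent, though all come from the same pair of libraries. It gives no measure of the spread between samples and is not a test of a drug effect. All differences from DMSO share the 1 DMSO library, and those of the combination from each drug share the combination library.

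In 13cRA cells the glycolytic genes were mostly lower than in DMSO cells: 12 of the 18 measured lay below DMSO and 6 above it, where 51.6% and 48.4% of all measured genes did, with a median log2 difference of −0.31 (rank-based interval −0.51 to 0.03), beside a median of −0.02 over all measured genes. GAPDH, LDHA and ALDOA were lower by at least 1.5-fold and PFKL was higher by that much. Of the 9 HIF-linked genes 7 lay below DMSO and 2 above it (median −0.19, interval −0.39 to 0.38). PDK1 was at least 1.5-fold lower and EGLN3 at least 1.5-fold higher. By this size 2 of 27 were at least 1.5-fold higher, against a background of 14.4% of all measured genes, and 4 of 27 were at least that much lower, against 13.2%: the first share is below its background and the second close to it. The higher count includes EGLN3, which passed the 5 CPM mean through the libraries with 13cRA, so its call followed from passing. With TMM factors, which move the median of all genes by −0.32 in this contrast, 15 of 27 were lower and 2 higher, where 3079 of 9573 genes were lower and 659 higher, and relative to all genes the glycolytic median was −0.30, against −0.29 with CPM. Among cells in which 4000 to 4600 genes were detected after thinning, the glycolytic median was −0.16 and the HIF-linked median −0.06. Of the 135 gene differences over the 5 comparisons, 37 had the opposite sign in that window, which holds 38 doxazosin cells. In doxazosin cells 14 of 18 glycolytic and 7 of 9 HIF-linked genes lay above DMSO, where 46% of all measured genes did and 54% lay below. The differences were small, with medians of 0.07 (0.0028 to 0.19) and 0.26 (−0.08 to 0.57). By size 1 gene, P4HA2, passed 1.5-fold upward (background 3.43%) and 0 downward (background 3.99%). In combination cells 9 glycolytic genes lay above and 9 below DMSO (median −0.01) and 7 of 9 HIF-linked genes lay above (median 0.14), where 47.3% of all measured genes lay above and 52.7% below. ALDOC, PFKFB3 and EGLN3 made 3 of 27 at or past 1.5-fold higher (background 7.41%) with 0 lower (background 7.46%). The call of EGLN3 again followed from passing the 5 CPM mean.

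**Figure D1:**
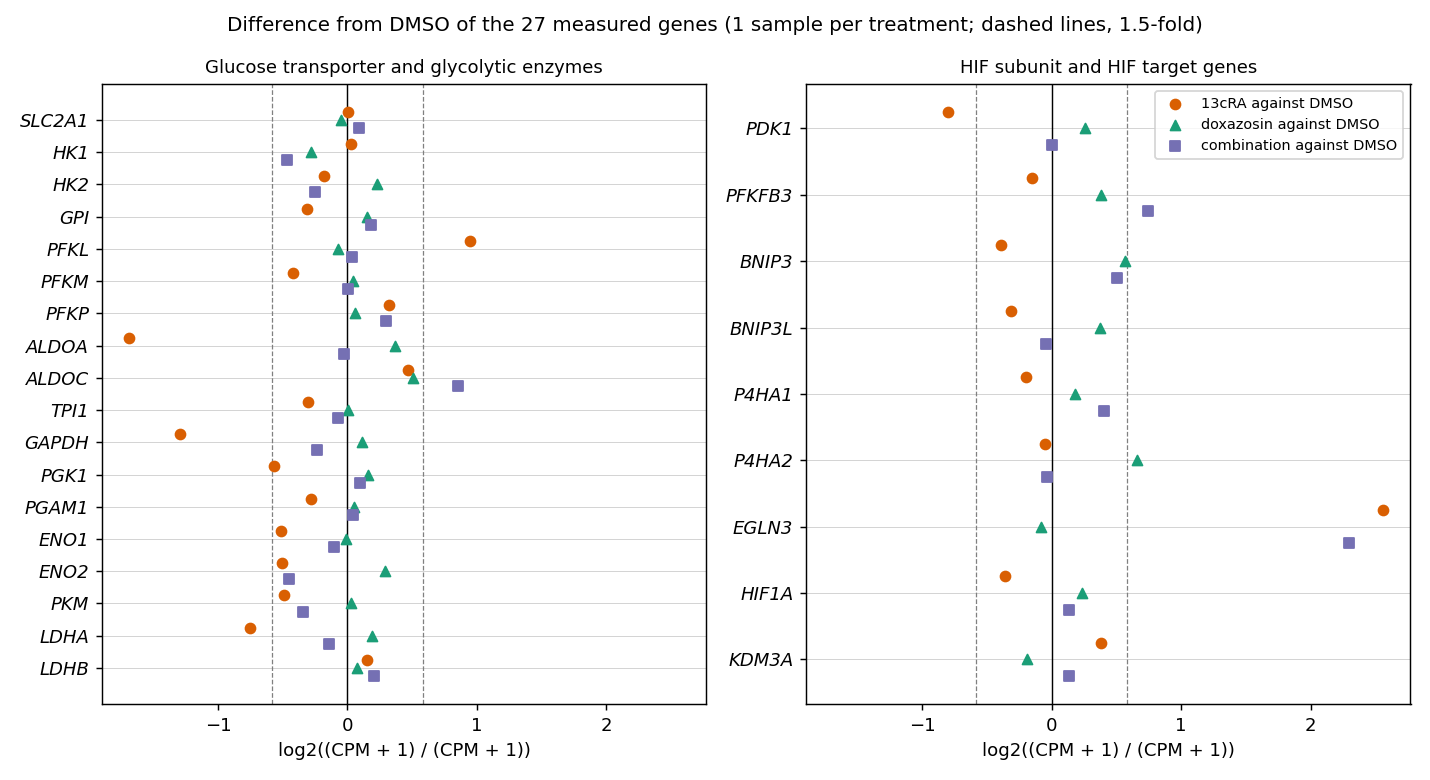
Log2 difference in CPM of each measured gene from DMSO (x axis) under 13cRA, doxazosin and the combination (circles, triangles and squares), glycolytic genes left in pathway order and HIF-linked genes right; dashed lines mark 1.5-fold. The 13cRA points of ALDOA, GAPDH, LDHA and PDK1 lie left of the lower line, and the EGLN3 points at 2.56 and 2.30 are the farthest to the right.

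The promoters of 4 genes are shown because these genes carry the main contrasts: EGLN3, high in both libraries with 13cRA, BNIP3, high in both with doxazosin, ALDOC, highest with both drugs, and GAPDH, low with 13cRA alone. The windows are the 250 bases before the RefSeq gene start on GRCh38.p14, written 5′ to 3′ on the gene's strand. Capitals mark the hypoxia core, ACGTG or GCGTG on either strand, including the E-box CACGTG, a MYC-binding motif that contains ACGTG on each strand and so counts as 2 overlapping matches. The window of EGLN3 (chr14:33951075-33951324, minus strand) held 0 matches, that of BNIP3 (chr10:131981924-131982173, minus strand) held 6, that of ALDOC (chr17:28576896-28577145, minus strand) held 5 and that of GAPDH (chr12:6535014-6535263, plus strand) held 2, both in its single E-box.
EGLN3: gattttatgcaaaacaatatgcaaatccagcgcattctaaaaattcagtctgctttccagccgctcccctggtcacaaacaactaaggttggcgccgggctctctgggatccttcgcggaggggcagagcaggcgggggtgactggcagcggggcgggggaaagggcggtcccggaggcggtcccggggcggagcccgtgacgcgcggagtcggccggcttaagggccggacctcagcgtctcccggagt
BNIP3: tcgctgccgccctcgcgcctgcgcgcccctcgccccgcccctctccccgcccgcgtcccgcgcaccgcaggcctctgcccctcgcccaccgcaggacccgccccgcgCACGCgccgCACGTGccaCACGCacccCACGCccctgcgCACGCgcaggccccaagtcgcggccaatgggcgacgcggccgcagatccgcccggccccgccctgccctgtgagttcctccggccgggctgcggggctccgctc
ALDOC: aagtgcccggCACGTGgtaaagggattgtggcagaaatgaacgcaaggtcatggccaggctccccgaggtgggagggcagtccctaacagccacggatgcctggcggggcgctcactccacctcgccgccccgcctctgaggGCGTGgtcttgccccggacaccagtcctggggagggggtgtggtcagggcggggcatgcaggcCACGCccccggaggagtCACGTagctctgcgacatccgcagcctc
GAPDH: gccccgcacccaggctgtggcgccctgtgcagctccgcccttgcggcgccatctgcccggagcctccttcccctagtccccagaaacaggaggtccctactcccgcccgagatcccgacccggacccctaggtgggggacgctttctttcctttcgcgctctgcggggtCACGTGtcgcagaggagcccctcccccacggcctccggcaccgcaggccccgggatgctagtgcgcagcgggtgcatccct
The matches of BNIP3 start 104 to 143 bases before the gene start, those of ALDOC 28 to 240 bases and those of GAPDH 80 and 81 bases.

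Over windows that also take in the first bases of the gene, RefSeq gave promoters for 31 of the 34 genes. The hypoxia core was in 24 of 38 glycolytic windows (63.2%) and 13 of 17 HIF-linked windows (76.5%), against 62.8% of the windows of measured genes and 48.5% of all windows. By gene, at least 1 window held it for 17 of 18 glycolytic genes (94.4%) and 11 of 13 HIF-linked genes (84.6%), against 73.0% of measured genes; the glycolytic genes had 38 windows for 18 genes and measured genes 11310 for 7716, so glycolytic genes had more windows each. CACGTG was in 13.2% and 17.6% of these windows, against 10.1% for measured genes. AGGTCA, the core hexamer of many nuclear receptor elements, was in 21.1% of glycolytic and 0% of HIF-linked windows, against 9.68% for measured genes. Of the 8 glycolytic windows with AGGTCA, 4 belong to HK1, and among these are overlapping windows that share most of their bases. A match is a description of letters, and no match says only that they are not in the window.

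Glucose enters through SLC2A1 (GLUT1), the main transporter gene here. It stood at 42.7, 41.2, 45.4 and 42.6 CPM in 13cRA, doxazosin, combination and DMSO cells. Over all kept cells the spread was at most 1.10-fold over the 5 comparisons. With TMM factors its 13cRA difference from DMSO was −0.33, against 0.00 with CPM. In the window of genes per cell this difference was 0.67, past 1.5-fold. There the combination stood at −0.57 from 13cRA, 0.42 from doxazosin and 0.10 from DMSO, and doxazosin at −0.32 from DMSO. SLC2A3 (GLUT3), the transporter typical of neurons, did not pass 0.265 CPM in any library and was not measured.

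Hexokinase traps glucose as glucose-6-phosphate, and HK2 is its hypoxia-inducible form. HK1 was at 105 CPM in 13cRA, 84.7 in doxazosin, 74.2 in combination and 103 in DMSO cells, and HK2 at 37.9, 50.9, 36.2 and 43.2 CPM. The 2 forms thus moved apart under doxazosin, where HK1 was lower and HK2 higher than in DMSO cells by 0.28 and 0.23 on the log2 scale. Per kilobase of exon, HK2 made up 27.2% of hexokinase RNA in 13cRA, 38.4% in doxazosin, 33.6% in combination and 30.3% in DMSO cells. GPI, which converts glucose-6-phosphate to fructose-6-phosphate, was at 494, 681, 695 and 613 CPM, so it was lowest with 13cRA alone and higher than DMSO in both doxazosin libraries; its 13cRA difference of −0.31 from DMSO was 0.0008 in the window of 4000 to 4600 genes.

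Phosphofructokinase, the committed step, has 3 genes, and over all kept cells its make-up differed under 13cRA. PFKM stood at 136, 188, 183 and 182 CPM and PFKP at 90.4, 75.4, 89.2 and 72.3 CPM in 13cRA, doxazosin, combination and DMSO cells. PFKL, the liver form, was at 27.1 CPM in 13cRA cells and 12.9 to 14.0 CPM in the other libraries, a log2 difference from DMSO of 0.94; with a mean under 20 CPM it is singled out after its values were seen, as are ALDOA, PDK1, PFKFB3, P4HA2 and EGLN3. Per kilobase PFKM was 46.1% of phosphofructokinase RNA in 13cRA cells, 60.1% in doxazosin, 55.6% in combination and 60.2% in DMSO cells, while PFKP was 46.4%, 36.5%, 40.9% and 36.1%. On thinned cells the share with a PFKL count was 26.9% in 13cRA and 21.6% in DMSO cells, with intervals (21.5% to 32.9% and 17.3% to 26.5%) that overlap. In the window of genes per cell PFKL stood at 0.57 from DMSO with 13cRA, 0.86 with doxazosin and −0.08 with the combination. There PFKP stood at 0.69, −1.21 and −0.14 from DMSO, and PFKM at −0.26, 0.09 and 0.30. PFKL was thus not highest with 13cRA in that window.

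**Figure D2:**
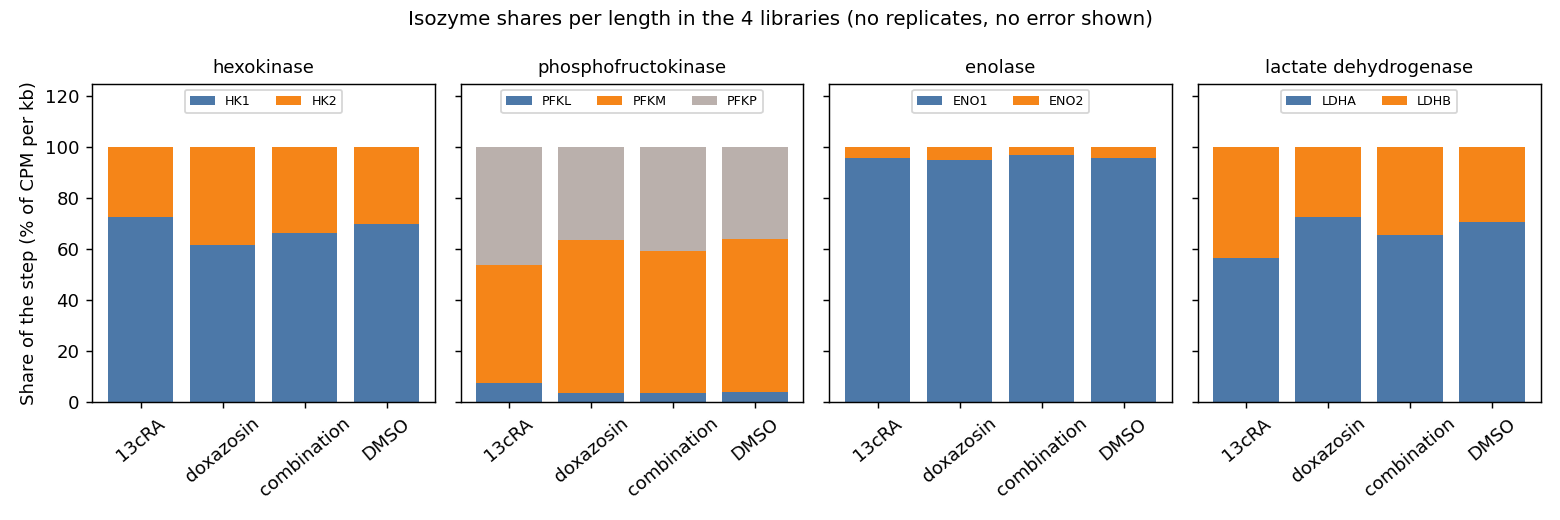
Share of each isozyme (y axis, % of the CPM per kilobase of exon of its step) in the 4 libraries for hexokinase, phosphofructokinase, enolase and lactate dehydrogenase; there are no replicates and so no error bars. LDHA makes up 56.4% of its step with 13cRA and 70.8% with DMSO, while ENO1 stays between 95.1% and 96.8%.

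Aldolase cuts the 6-carbon sugar, and the summed levels of its 2 genes went opposite ways under 13cRA. ALDOC, the brain form, was at 97.8 CPM in 13cRA, 101 in doxazosin, 128 in combination and 70.5 in DMSO cells. All 3 treatments thus stood above DMSO, by 0.47, 0.51 and 0.85 on the log2 scale, and 1 of these, the combination, passed 1.5-fold. In the window of 4000 to 4600 genes the doxazosin difference turned to −0.18, while the combination stood at 0.63. With TMM factors the 13cRA difference was 0.14. The share of thinned cells with an ALDOC count was lower with 13cRA (44.2%) than with DMSO (55.2%), and 67.7% with doxazosin and 73.7% with the combination. The top 5% of thinned cells held 33.9% of ALDOC counts with 13cRA and 28.1% with DMSO. ALDOA, the ubiquitous form, was at 4.82 CPM in 13cRA cells, 23.0 in doxazosin, 17.3 in combination and 17.7 in DMSO cells, a log2 difference of −1.68 with 13cRA. The ALDOA values are uncertain, since 42.3% of its annotated exon bases are shared with another gene on the same strand. How the authors' counting treated reads in that overlap was not tested.

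TPI1, which interconverts the 2 triose phosphates, was the most abundant glycolytic gene per kilobase on the mean of the libraries. It stood at 2667, 3310, 3133 and 3303 CPM in 13cRA, doxazosin, combination and DMSO cells, so the highest and lowest libraries differed by less than the 1.5-fold used here.

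GAPDH, which oxidises glyceraldehyde-3-phosphate and passes electrons to NAD+, had the largest gap between 13cRA and DMSO cells among the genes with a mean of at least 20 CPM. It was at 1419 CPM (interval 1404 to 1435) in 13cRA cells, 3763 in doxazosin, 2959 in combination and 3482 CPM (3466 to 3499) in DMSO cells. The 13cRA library stood alone, at a log2 difference of −1.29 from DMSO, and the combination stood 1.06 above 13cRA and 0.23 below DMSO. The gap ran through the cells: thinned 13cRA cells had a median of 1412 CPM (quartiles 912 and 1912), and thinned DMSO cells 3324 CPM (quartiles 2640 and 4235). In the window of 4000 to 4600 genes (92 cells with 13cRA, 105 with DMSO) the log2 difference was −0.73, so the sign held while the size was smaller. An antisense gene overlaps 14.2% of the exon bases of GAPDH, and one overlaps 10.1% of those of ALDOC; without the strandedness of the counting, their reads cannot be told apart.

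The enzymes after GAPDH were also lower with 13cRA than with DMSO, by less. PGK1, which makes ATP, was at 588, 971, 934 and 871 CPM in 13cRA, doxazosin, combination and DMSO cells. PGAM1, a mutase, was at 239, 302, 301 and 291 CPM, and ENO1, the main enolase, at 1109, 1571, 1471 and 1583 CPM. With 13cRA they were 0.57, 0.28 and 0.51 lower than in DMSO cells on the log2 scale, all short of 1.5-fold; in the window of 4000 to 4600 genes PGK1 and ENO1 were at −0.31 and −0.21 and PGAM1 turned to 0.10. PKM, pyruvate kinase, stood at 1294, 1852, 1428 and 1814 CPM, low in both libraries with 13cRA.

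ENO2, the neuronal enolase, was low in both libraries with 13cRA. It was at 37.8 CPM in 13cRA and 39.2 in combination cells, against 66.3 in doxazosin and 54.0 in DMSO cells. The share of thinned cells with an ENO2 count was 27.3% in 13cRA, 58.3% in doxazosin, 34.4% in combination and 47.0% in DMSO cells. The combination was 0.74 lower than doxazosin on the log2 scale, but in the window of 4000 to 4600 genes it was 0.32 higher than doxazosin and 0.15 higher than DMSO.

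Lactate dehydrogenase closes the pathway. LDHA, its muscle-type and hypoxia-inducible gene, was at 2208 CPM in 13cRA, 4260 in doxazosin, 3372 in combination and 3729 in DMSO cells. LDHB, the heart-type gene, was at 820, 780, 853 and 740 CPM, so it was slightly higher than DMSO with every treatment, though TMM factors put 13cRA at −0.19 from DMSO. The log2 differences from DMSO with 13cRA were −0.76 for LDHA and 0.15 for LDHB, and LDHA made up 56.4% of the pair per kilobase in 13cRA cells against 70.8% in DMSO cells. In the window of 4000 to 4600 genes the LDHA difference was −0.35. Of LDHB, 33.4% of exon bases are shared with another gene on the same strand.

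**Figure D3:**
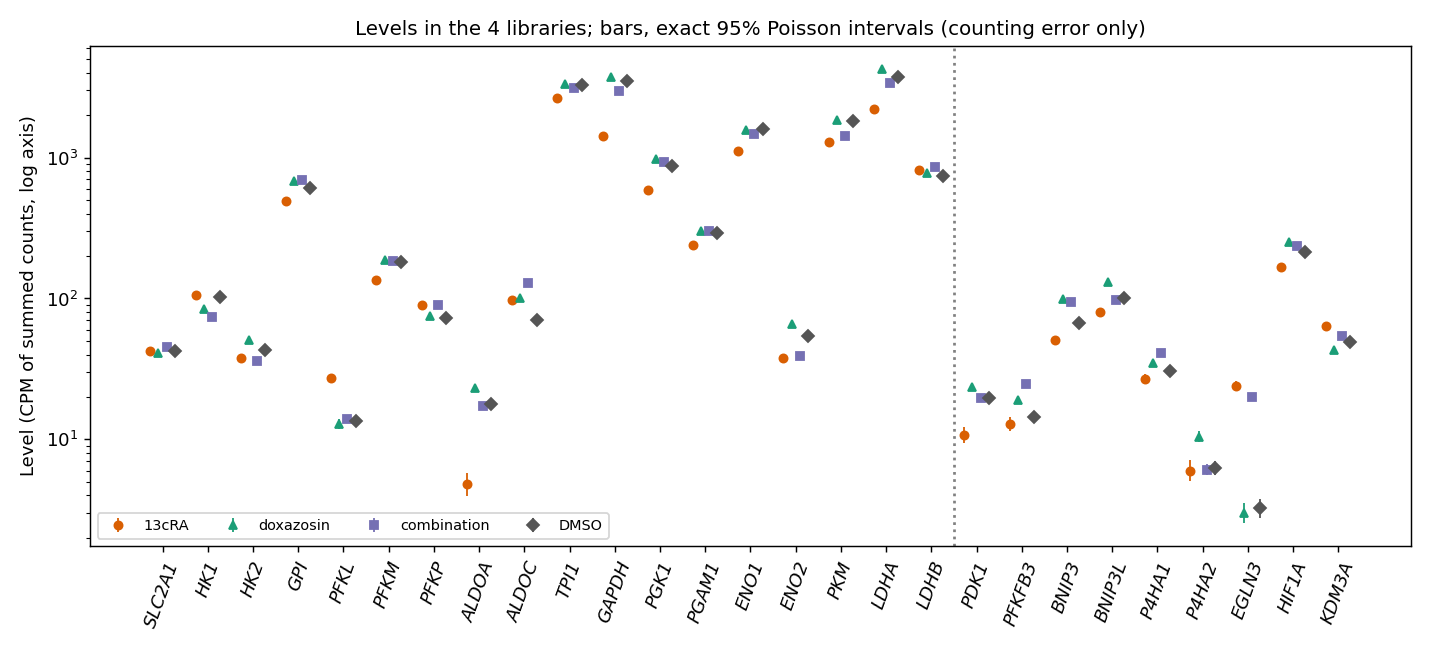
Level of each measured gene (y axis, CPM of summed counts, log scale) in the 13cRA, doxazosin, combination and DMSO libraries (circles, triangles, squares and diamonds); bars are exact 95% Poisson intervals, mostly smaller than the symbols, and the dotted line parts glycolytic from HIF-linked genes. GAPDH at 1419 CPM and ALDOA at 4.82 CPM with 13cRA fall below the other libraries, and EGLN3 splits into 20 to 24 CPM with 13cRA and about 3 CPM without.

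All glycolytic genes together made up 1.14% of counts in 13cRA, 1.81% in doxazosin, 1.58% in combination and 1.70% in DMSO cells. The 13cRA library was the lowest of the 4 for 11 of the 18 measured genes, against 36.1% of all measured genes, and both libraries with 13cRA lay below both others for 8 of 18, against 22.5%. Those counts describe 1 library per treatment, and the low gene number per cell of the 13cRA library moves with them. The other direction was also present: both libraries with 13cRA lay above both others for 4 of 18, against 20.9%, and the 13cRA library was the highest of the 4 for 3 of 18, against 34.6%.

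Of the HIF-linked genes, the oxygen sensor EGLN3 (ENSG00000129521.15 in the count table) set the libraries apart most. It codes for a prolyl hydroxylase that acts on HIF and is itself a HIF target, and GENCODE 29, under an earlier version of its ID, places it on the minus strand of GRCh38 at chr14:33924231-34462774. EGLN3 was at 24.0 CPM (22.0 to 26.1) in 13cRA and 19.8 (18.8 to 20.9) in combination cells, against 3.01 (2.53 to 3.55) in doxazosin and 3.24 (2.75 to 3.79) in DMSO cells. Both libraries with 13cRA lay above both without, at log2 differences from DMSO of 2.56 and 2.30, and the combination was 2.38 above doxazosin. Against 13cRA it was −0.26, or 0.04 with TMM factors. It passed the 5 CPM mean through these libraries, so a difference was bound to follow from passing.

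Counts of EGLN3 were found in a minority of cells. After thinning, 19.3% of 13cRA cells (14.6% to 24.7%) and 23.0% of combination cells (18.1% to 28.4%) had a count, against 4.26% of doxazosin cells (2.06% to 7.69%) and 5.49% of DMSO cells (3.28% to 8.53%). In 13cRA cells the top 5% of cells held 62.4% of its counts. Genes of like level were also found in a minority of thinned 13cRA cells: 27.7% for P4HA1 (26.8 CPM) and 26.9% for PFKL (27.1 CPM). The top 5% of these cells held 52.1% of P4HA1 counts. In the window of 4000 to 4600 genes the log2 differences from DMSO were 2.03 with 13cRA and 2.54 with the combination, and over 10 alternatives they ran between 1.81 and 2.64, and 1.59 and 2.54. EGLN1, the main HIF hydroxylase, was not measured, at 0.513 to 3.05 CPM.

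**Figure D4:**
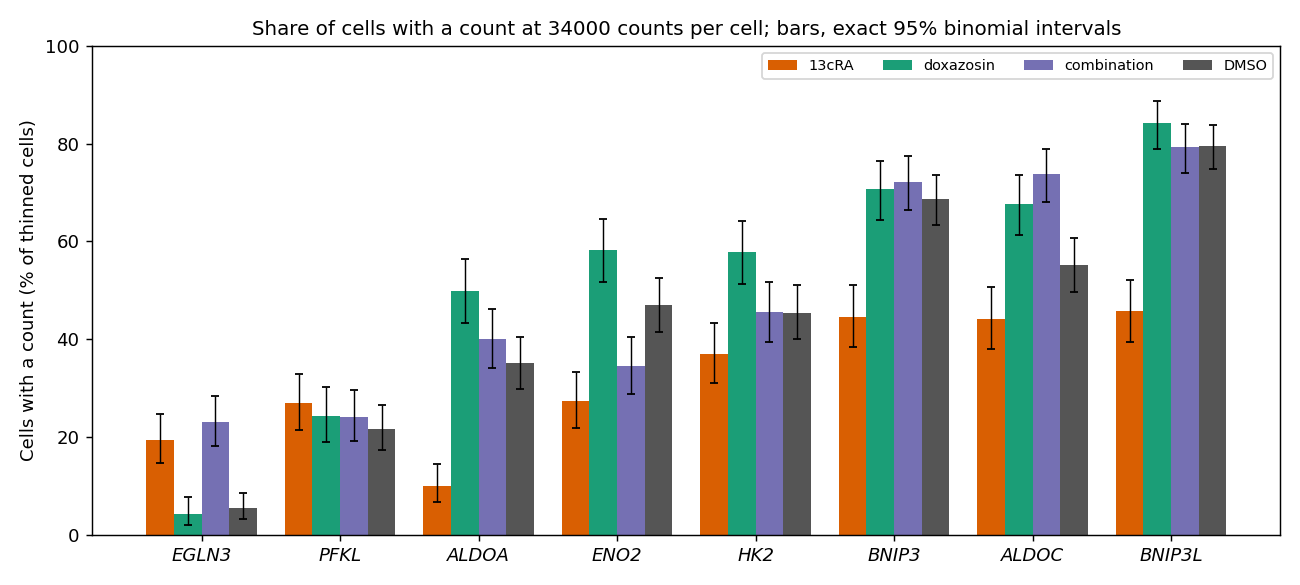
Share of cells with a count for 8 genes (y axis, % of cells thinned to 34000 counts) in the 13cRA, doxazosin, combination and DMSO libraries; bars are exact 95% binomial intervals over cells. EGLN3 stands at 19.3% and 23.0% in the libraries with 13cRA and 4.26% and 5.49% without. ALDOA, ENO2, HK2, BNIP3, ALDOC and BNIP3L are lowest with 13cRA alone.

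HIF1A, the oxygen-regulated subunit, was at 166 CPM in 13cRA, 251 in doxazosin, 234 in combination and 213 in DMSO cells, differences from DMSO of −0.36, 0.24 and 0.14. Its RNA was thus lowest in one of the 2 libraries in which EGLN3 was high and above DMSO in the other. In the window of 4000 to 4600 genes HIF1A was −0.06 from DMSO with 13cRA and turned to −0.13 with the combination, so this contrast was not seen there. KDM3A, a histone demethylase and HIF target, was at 64.0, 42.8, 53.9 and 48.9 CPM, so it stood opposite to HIF1A relative to DMSO with each single drug and on the same side, at 0.14, with both. In the window KDM3A in the combination was −0.25 from DMSO. With TMM factors the 13cRA difference of KDM3A from DMSO was 0.05, against 0.38 with CPM.

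The switch genes decide where carbon goes. PDK1, which blocks pyruvate dehydrogenase, was at 10.8 CPM in 13cRA cells, 23.5 in doxazosin, 19.6 in combination and 19.5 in DMSO cells. Its 13cRA difference of −0.80 was −0.07 in the window of 4000 to 4600 genes. PFKFB3, which makes the activator of phosphofructokinase, was at 12.9, 19.1, 24.8 and 14.4 CPM, highest with both drugs (0.74 from DMSO), but the sign turned to −0.31 in that window. PFKFB4, its relative, was not measured, at 3.32 to 5.33 CPM.

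The mitophagy receptor BNIP3 was higher in both libraries with doxazosin: 99.5 CPM with doxazosin and 95 with the combination, against 50.6 with 13cRA and 66.8 with DMSO. The differences from DMSO, 0.57 and 0.50, stopped short of 1.5-fold, and that of the combination from 13cRA, 0.89, passed it. Among cells of 4000 to 4600 genes the doxazosin difference was 0.15. BNIP3L, its paralog, was at 80.7, 131, 97.7 and 101 CPM in 13cRA, doxazosin, combination and DMSO cells, so doxazosin cells stood above DMSO by 0.37 and 13cRA cells below it by a like amount, −0.32. The share of thinned cells with a BNIP3L count was 45.8% with 13cRA, against 84.3% with doxazosin, 79.3% with the combination and 79.6% with DMSO. Reads on annotated BNIP3 pseudogenes came to 3.84% of those on the gene.

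P4HA1 and P4HA2 hydroxylate collagen. P4HA1 was at 26.8, 35.0, 41.1 and 30.8 CPM in 13cRA, doxazosin, combination and DMSO cells. Both libraries with doxazosin lay highest, but in the window of 4000 to 4600 genes the differences of doxazosin and the combination from DMSO, 0.18 and 0.41 over all kept cells, turned to −0.80 and −0.54. P4HA2 was at 10.5 CPM with doxazosin and 6.01 to 6.27 CPM in the others. Its doxazosin difference from DMSO was 0.66, and 0.17 in the window of 4000 to 4600 genes. In that window P4HA2 with 13cRA and the combination stood at 2.12 and 1.99 from DMSO, against −0.05 and −0.04 over all kept cells. The other targets were low: NDRG1, a stress-responsive gene, at 3.34 to 5.92 CPM, ANKRD37 at 1.27 to 2.56, ADM, the peptide adrenomedullin, at 0.0830 to 0.665, and CA9, a carbonic anhydrase often read as a hypoxia marker, at 0.0217 to 1.76 CPM, highest in DMSO cells. Exons of CA9 (38.5%) and ANKRD37 (35.2%) overlap a gene on the other strand.

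Together the HIF-linked genes made up 0.0458% of counts in 13cRA, 0.0628% in doxazosin, 0.0604% in combination and 0.0515% in DMSO cells. Both libraries with doxazosin lay above both others for 5 of 9 measured HIF-linked genes (PDK1, PFKFB3, BNIP3, P4HA1 and HIF1A) and for 5 of 18 glycolytic genes (GPI, PFKM, ALDOC, PGK1 and PGAM1), where 15.7% of all measured genes did. They lay below both others for HK1 alone among the 27, where 19.5% of all measured genes did. These patterns were counted over all kept cells alone. For PDK1 and PFKM the combination was only 0.004 and 0.006 above DMSO, and TMM factors turned both below it. In the window of genes per cell the combination was below DMSO for PFKFB3 (−0.31), P4HA1 (−0.54) and HIF1A (−0.13). Doxazosin was below DMSO there for P4HA1 (−0.80), ALDOC (−0.18) and PGAM1 (−0.05). Both stayed above DMSO for PDK1, BNIP3, GPI, PFKM and PGK1.

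The combination exceeded 13cRA alone in 14 of 18 glycolytic genes (median 0.28, interval 0.05 to 0.49). It did so in 7 of 9 HIF-linked genes (median 0.50, interval −0.24 to 0.89). Of all measured genes 49.3% lay above and 50.7% below, with a median of −0.01. ALDOA, GAPDH, PGK1, LDHA, PDK1, PFKFB3, BNIP3 and P4HA1 passed 1.5-fold upward, 8 of 27 against a background of 12.8%, and PFKL passed it downward, 1 of 27 against 14.2%. With TMM factors 14 were higher and 1 lower, with 2710 of 9573 genes higher and 575 lower. The library with the fewest genes per cell, 13cRA, is the low side of this contrast too. In the window of 4000 to 4600 genes the glycolytic median was 0.14 and the HIF-linked median 0.06, with 2 of 27 genes at least 1.5-fold higher and 4 at least that much lower. Of all 9573 measured genes 1184 were higher and 1710 lower by that size there. Adding 13cRA to doxazosin left 6 of 18 glycolytic and 4 of 9 HIF-linked genes above doxazosin alone, where 49.3% of all measured genes lay above and 50.7% below. EGLN3 was higher by over 1.5-fold, 1 of 27 against 8.32%, and ENO2 and P4HA2 were lower, 2 of 27 against 6.39%. EGLN3 had passed the 5 CPM mean through the libraries with 13cRA, so its call followed from passing.

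The departure from additivity, the combination minus both single drugs plus DMSO on the log2 scale, was 1.29 for ALDOA, 0.95 for GAPDH, −0.84 for PFKL and −0.64 for P4HA2. The departure was above 0 for 11 of 18 glycolytic and 5 of 9 HIF-linked genes, where it was above 0 for 52.7% of all measured genes and below for 47.3%. At or past 1.5-fold were 2 of 27 upward, against 13.5% of all measured genes, and 2 downward, against 13.9%. EGLN3 departed by −0.18, close to the sum of the single differences. Departures were computed with CPM over all kept cells alone, not under the alternatives. The 13cRA library, with the fewest genes per cell, enters every departure. ALDOA shares 42.3% of its exon bases with another gene, so its departure is uncertain.

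Cell by cell, the mean of log2(CPM/10 + 1) over the measured genes gave each thinned cell a glycolytic and a HIF-linked score. The glycolytic medians were 3.97, 4.51, 4.39 and 4.37 in 13cRA, doxazosin, combination and DMSO cells, and 20.5%, 64.7%, 51.9% and 50% of cells lay above the DMSO median. The HIF-linked medians were 1.16, 1.57, 1.53 and 1.43, and 32.5%, 57.4%, 60% and 50% of cells lay above the DMSO median. Within libraries the scores correlated over cells at Pearson r of 0.43 (n = 249), 0.46 (n = 235), 0.45 (n = 270) and 0.34 (n = 328), given as a description. The cells share depth and complexity: the glycolytic score also went with the number of genes detected, at r of 0.65, 0.67, 0.54 and 0.48.

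**Figure D5:**
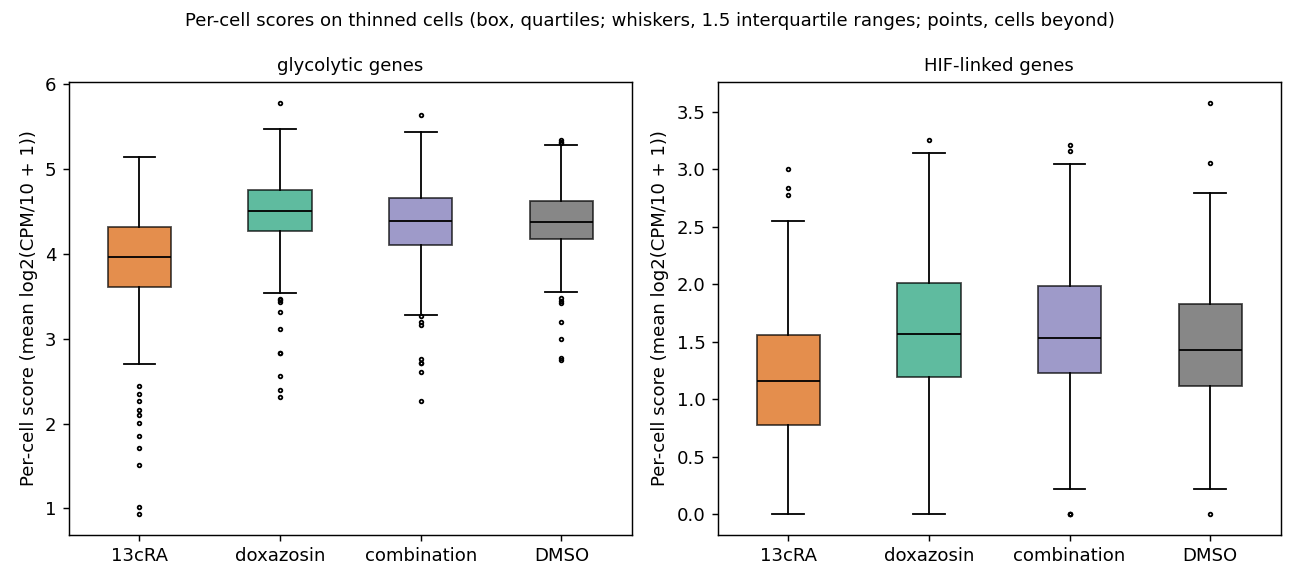
Per-cell scores (y axis, mean of log2(CPM/10 + 1) over the 18 glycolytic or 9 HIF-linked measured genes) of thinned cells in the 4 libraries; boxes show quartiles and medians, whiskers reach 1.5 interquartile ranges and points are cells beyond. The 13cRA boxes lie lowest in both panels, with medians of 3.97 and 1.16.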

How the data were processed

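Raw counts per gene and cell were deposited by the authors in 1 table for 60651 Ensembl gene IDs and 1287 cells, with column names that give each cell's treatment. Per the submitters' processing notes, the tools were STAR 2.7.8a, featureCounts, fastp 0.23.3, bcl2fastq and Seurat 4.3.0, and the builds named, without their roles, were GRCh38.p13 and GRCh37. In the sources used here, neither the annotation release nor the strandedness of the counting is given. Symbols were found for 60437 IDs.

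Cells with at least 500 genes and at most 25% mitochondrial counts were kept (1197 of 1287). No doublet caller was run. CPM were computed from the summed counts of each sample (22636509 to 72192743 counts per sample). The pseudocount was 1 CPM and the minimum mean 5 CPM. Cells were thinned to 34000 counts, leaving out 69, 4, 17 and 25 shallower cells in 13cRA, doxazosin, combination and DMSO. Levels have exact 95% Poisson intervals and shares exact (Clopper-Pearson) intervals; reads without molecular identifiers are not independent molecules. The limit that a count of 0 allows is 3 counts. There is 1 sample per treatment, so no p-value was computed.

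The rule for named genes gave levels in all libraries for members with a mean of at least 20 CPM, ranges for the others, and up to 4 members per wider list. The members and lists were chosen with earlier results of these data known. Lengths and positions come from GENCODE 29 on GRCh38, which is not the annotation behind the counts: 32 of the 34 members carry another ID version in the table. Alternatives were TMM factors (edgeR 4.0.16), DESeq2 1.42.0 size factors, other cell filters, per-cell means, thinned cells, a window of genes per cell, other pseudocounts, level minimums and fold limits. Scripts ran in Python 3.11.15 and R 4.3.3 and were tested on simulated data.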

Additional observations from a re-analysis of the deposited data

Results flagged for a closer look

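With CPM scaling, 2 genes differed with 13cRA in opposite directions alone and on top of doxazosin, with counting intervals apart in both pairs. The rule was applied to the 27 measured members alone, so no share of all measured genes stands beside this count. GPI differed by −0.31 on the log2 scale with 13cRA alone against DMSO and by 0.03 with the combination against doxazosin, a gap of 0.34. For GPI the opposite signs did not hold under 3 other settings: on top of doxazosin scaling by TMM gave −0.01 and by DESeq2 −0.07, and alone it was 0.0008 among thinned cells with 4000 to 4600 genes. P4HA1 differed by −0.19 and by 0.23, a gap of 0.42, and kept these signs with TMM (−0.52 and 0.19), DESeq2 (−0.48 and 0.13) and that window (−0.60 and 0.27). Over the alternatives the 13cRA difference from DMSO came as near 0 as −0.04. The share of thinned cells with a P4HA1 count was lower in the combination (35.9%) than with doxazosin (40%). In the combination the top 5% of thinned cells held 54.0% of P4HA1 counts, against 33.0% with doxazosin. The difference between these effects was not tested, since each treatment has 1 sample.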

How the results depend on the processing

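Of all 135 gene differences, 81 kept their sign under every alternative tried, and of the 22 at or past 1.5-fold, 18 did. The window of 4000 to 4600 genes turned 37 of the 135 and TMM factors 12. The 4 that reversed did so among thinned cells with 4000 to 4600 genes: PFKFB3 in the combination was −0.31 against DMSO and −0.84 against 13cRA, ENO2 in the combination against doxazosin was 0.32, and P4HA2 in the same contrast was 1.83. That window holds 92, 38, 79 and 105 cells in 13cRA, doxazosin, combination and DMSO, and the cause was not tested.

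TMM factors moved the median of all genes by −0.32 for 13cRA against DMSO and by 0.30 for the combination against 13cRA, and DESeq2 size factors by −0.28 and 0.23. With TMM the glycolytic and HIF-linked medians for 13cRA were −0.64 and −0.52 and the glycolytic median for the combination against 13cRA was 0.59; with DESeq2 these were −0.60, −0.48 and 0.52. The counts of genes at least 1.5-fold lower with 13cRA were 15 (TMM) and 14 (DESeq2), those higher in the combination than 13cRA 14 and 13, and those higher with doxazosin 2 and 2. Of all 9573 measured genes these counts were 3079 and 2817, 2710 and 2343, and 361 and 401. With 13cRA, TMM also turned PFKP (−0.01), HK1 (−0.30), LDHB (−0.19) and SLC2A1 (−0.33) below DMSO.

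In the gene window, genes past 1.5-fold were 4 higher for 13cRA, 5 higher and 3 lower for doxazosin, 1 lower for the combination, 2 higher and 4 lower for the combination against 13cRA, and 4 higher and 4 lower against doxazosin, where the glycolytic median was 0.11. Of all 9573 measured genes, 1355 were higher for 13cRA there, 1092 higher and 1499 lower for doxazosin, and 1321 lower for the combination. For the combination against 13cRA 1184 were higher and 1710 lower, and against doxazosin 1527 higher and 1341 lower. With all kept cells doxazosin had 328 higher and 382 lower. The mean of per-cell CPM gave 0 lower for the combination against 13cRA and 1 lower against doxazosin, thinned cells 1 lower for doxazosin and 1 lower for the combination against doxazosin, and a pseudocount of 5 CPM 0 higher for doxazosin and 1 lower for the combination against doxazosin. In the same order, all 9573 measured genes gave 1260 and 438 lower, 389 and 473 lower, and 172 higher and 362 lower. With no minimum level there were 4 higher for 13cRA, 2 higher and 1 lower for doxazosin, 1 lower for the combination, and 2 lower for the combination against 13cRA. In the same order, 4392 higher, 1045 higher and 1140 lower, 1496 lower and 3880 lower were found among 50987 genes. A mean of at least 20 CPM left 0 higher and 2 lower for 13cRA, 0 higher for doxazosin, 1 higher for the combination, 5 higher and 0 lower against 13cRA, and 0 higher and 1 lower against doxazosin. Of all 5953 genes at that level, 577 were higher and 778 lower for 13cRA, 97 higher for doxazosin and 295 higher for the combination. Against 13cRA 764 were higher and 545 lower, and against doxazosin 298 higher and 209 lower. At 2-fold there were 1 higher and 2 lower for 13cRA, 0 higher for doxazosin, 1 higher for the combination, 2 higher and 0 lower against 13cRA, and 0 lower against doxazosin. Of all 9573 measured genes, 521 were 2-fold higher and 315 lower for 13cRA, 64 higher for doxazosin and 259 higher for the combination. Against 13cRA 262 were higher and 383 lower, and against doxazosin 157 lower.

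No paired analysis was possible because each treatment has 1 sample. Depth limits the low genes most in the 13cRA library, which has the fewest counts.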

Other observations

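Genes around glycolysis were read from 6 further lists, as levels in 13cRA, doxazosin, combination and DMSO cells. Of the genes that act on the fate of pyruvate and lactate, 12 of 15 measured were lower with 13cRA than with DMSO, 3 of them at least 1.5-fold. The list includes kinases that hold pyruvate back, and such a kinase is among these 3. Of all measured genes 51.6% were lower and 13.2% at least 1.5-fold lower in that contrast. BSG, the chaperone of lactate transporters, stood at 304, 484, 429 and 533 CPM, and DLD, a subunit of pyruvate dehydrogenase, at 121, 212, 186 and 188 CPM. In the glycogen list 6 of 8 measured genes were lower with 13cRA (background 51.6%), 2 of them at least 1.5-fold (background 13.2%), with GYG1, the primer of glycogen synthesis, at 19.9, 48.9, 42.9 and 42.6 CPM. In the pentose phosphate list 6 of 7 were lower with 13cRA (background 51.6%), 2 of them at least 1.5-fold (background 13.2%), among them RPE at 33.0, 63.7, 69.4 and 51.3 CPM. PGLS, of the same list, was lower with doxazosin, at 33.97, 18.5, 26.3 and 38.7 CPM.

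Of 21 other HIF targets measured, 11 were higher (background 48.4%) and 10 lower (background 51.6%) in 13cRA than in DMSO cells, 7 at least 1.5-fold higher (background 14.4%) and 1 at least 1.5-fold lower (background 13.2%). RAB20, one of the 7 and named after its values were seen, was at 12.1, 0.195, 7.98 and 0.104 CPM and passed the 5 CPM mean through the libraries with 13cRA, so its call followed from passing. WSB1, a ubiquitin ligase subunit, stood at 140, 61.6, 74.7 and 49.8 CPM, and DDIT4, an inhibitor of mTORC1 signalling, at 147, 105, 169 and 79.4 CPM. LOX, which crosslinks collagen, went the other way at 28.0, 58.2, 33.9 and 42.3 CPM. Among 10 measured genes of the oxygen-sensing machinery, 2 were at least 1.5-fold higher (background 14.4%) and 1 lower (background 13.2%) with 13cRA, shares near the background. VHL, which tags hydroxylated HIF for destruction, stood at 95.5, 45.7, 40.9 and 50.0 CPM and the coactivator EP300 at 86.7, 38.5, 39.4 and 47.6 CPM.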
